A study of Mus musculus with 3 samples.

Results

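The CD8 T cells of the mouse aorta were picked out of single-cell RNA sequencing data by the transcripts that define them. A barcode, the tag shared by all reads of one droplet, was kept with at least 200 detected genes and at most 10% mitochondrial UMIs (unique molecular identifiers, each marking one captured transcript). A kept barcode was called a CD8 T cell with at least 2 UMIs of Cd3d, Cd3e and Cd3g together, at least 1 UMI of Cd8a or Cd8b1, and 0 UMIs of Cd4, of the B cell gene Cd79a and of the myeloid genes Csf1r and Csf3r. The rule found 132 CD8 T cells among 20903 kept barcodes. The 238 other barcodes with at least 2 Cd3 UMIs and no Cd79a, Csf1r or Csf3r UMI served as the comparison and are called other T cells.

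By their labels all mice, the controls included, were ApoE-/- on the C57BL/6J background, a strain that clears lipoproteins poorly and develops atherosclerosis. There was 1 library for each of 3 groups: an untreated control, a group named HHcy whose drinking water held Hcy at 1.8 g/L for 4 weeks, and a group named WD fed a western diet for 4 weeks. CD45+ live nucleated cells were sorted from digested whole aortas with their adventitia. The age of the mice and the number pooled per library were not given in the sources used here. With 1 library per group, no difference between groups has a replicate check, and none was tested.

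CD8 T cells carry T cell receptors that recognise peptides on MHC class I molecules, and the heterodimer of Cd8a and Cd8b1 binds the same molecules as a coreceptor. Naive CD8 T cells circulate through lymphoid organs with the receptor Ccr7. After activation they make granules of perforin and granzymes, which kill target cells, and secrete chemokines such as Ccl5 and the cytokine Ifng. In atherosclerotic vessels of mice and humans, CD8 T cells are found in plaques and in the adventitia.

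The control library held 7512 called barcodes, the library labelled HHcy 9753 and the WD library 8557, of which 6038, 8155 and 6710 were kept. Apoe, the gene disrupted in the strain, stood at 16.3 CPM in the control (CPM states a gene's UMIs relative to all UMIs, here of the library and later of the summed cells), 19.3 CPM in the WD library and 374 CPM in the library labelled HHcy, which goes against its label. The CD8 T cells of the library labelled HHcy held 15 Apoe UMIs, and those of the control and WD libraries held 0. Between 20 and 24 barcode sequences were shared by each pair of libraries, and none belonged to a CD8 T cell. The part of the label mismatch in any value of the library labelled HHcy was not tested.

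The control held 49 of the CD8 T cells, the WD library 26 and the library labelled HHcy 57. Over the control, HHcy-labelled and WD libraries, their median depth was 4530, 7198 and 5216 UMIs, against 4535, 5972 and 4870 UMIs in the other T cells. By the rule's own choice, Cd8a (ENSMUSG00000053977, chromosome 6: 71373427-71379171) stood at 654, 386 and 539 CPM in the CD8 T cells and Cd8b1 (ENSMUSG00000053044, chromosome 6: 71322788-71337492) at 774, 505 and 697 CPM. Both Cd8a and Cd8b1 were detected in 98 of the 132 cells, Cd8a alone in 16 and Cd8b1 alone in 18. At the edge of the rule, 13 members held a single Cd8 UMI and 9 held exactly 2 Cd3 UMIs, while 4 barcodes with 1 Cd3 UMI met every other condition and stayed outside. The other T cells were mixed: 94 held a Cd4 UMI, 8 of them with a Cd8 UMI as well, and 144 held neither. The exclusion genes shaped the selection, since 433 of 573 barcodes with Cd3 and Cd8 UMIs carried Cd79a, Csf1r or Csf3r. Those 433 had a median of 21066 UMIs, against 5764 in the remainder, and 13 of them were excluded for a single Cd79a UMI.

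The label was checked against markers that the rule did not use. Trac, the constant region of the alpha chain of the T cell receptor, was found in 112 of the 132 cells (84.8%). Nkg7, a granule membrane protein of cytotoxic lymphocytes, was found in 114 (86.4%), Ccl5 in 96 (72.7%) and Gzmk in 44 (33.3%). Among the other T cells these shares were 69.3%, 42.0%, 38.2% and 5.04%. Ncr1, a receptor that defines NK cells, had 8 UMIs, all in 1 CD8 T cell of the library labelled HHcy. The NK receptor genes Klra4 and Klra8 had 0 UMIs in every library, in the other T cells as well. Klrb1c, a further NK receptor gene, had UMIs in the CD8 T cells of every library. Trdc or Tcrg-C1, constant regions of the gamma-delta receptor, were detected in 7 members (5.30%).

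Free RNA, which enters droplets from broken cells, was read from B cells, which should lack these genes. They held at least 2 Cd79a UMIs and no Cd3, Csf1r or Csf3r UMI. Barcodes with Cd3 RNA were thus left out beforehand, and the shares may understate free RNA of T cells. Over the control, HHcy-labelled and WD libraries in this order, Cd8a was found in 0.659%, 0.604% and 0.271% of B cells and Gzmk in 0, 1 and 2 of them. Ccl5 was found in 5.43%, 4.86% and 8.13% of them, at median depths of 7498.5, 6447 and 6545 UMIs, below its share in the CD8 T cells of each library. In macrophages with at least 2 Csf1r UMIs, Cd8a was found in 1.39%, 1.47% and 0.509% and Ccl5 in 13.1%, 11.6% and 20.2%. The part of free RNA in these macrophage shares was not tested. Ccr7 is a B cell gene as well and was found in 69.9% of B cells in the control and 77.0% in the library labelled HHcy.

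Promoters of effector genes are shown first, because T-box and RUNX factors, among them Eomes, Tbx21 and Runx3, are known regulators of cytotoxic genes in CD8 T cells. The 250 bases before the start of Gzmk, Gzmb and Nkg7 were taken from RefSeq on GRCm38.p6, the build that the submitters' processing notes name as mm10. Capitals mark TCACAC, the core of the T-box motif, and TGTGGT, the core of the RUNX motif, on either strand. No match shown overlaps another.
Gzmk, chr13:113180966-113181215, minus strand: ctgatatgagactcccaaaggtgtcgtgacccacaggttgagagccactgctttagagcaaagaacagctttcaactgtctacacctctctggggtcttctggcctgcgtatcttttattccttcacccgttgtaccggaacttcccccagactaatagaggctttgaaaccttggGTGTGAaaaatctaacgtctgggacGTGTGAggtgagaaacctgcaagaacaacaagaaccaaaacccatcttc
Gzmb, chr14:56262335-56262584, minus strand: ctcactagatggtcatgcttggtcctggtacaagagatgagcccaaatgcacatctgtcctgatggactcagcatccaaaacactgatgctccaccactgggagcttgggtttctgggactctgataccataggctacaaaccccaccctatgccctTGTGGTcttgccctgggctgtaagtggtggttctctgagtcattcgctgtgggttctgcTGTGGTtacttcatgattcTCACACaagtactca
Nkg7, chr7:43436888-43437137, plus strand: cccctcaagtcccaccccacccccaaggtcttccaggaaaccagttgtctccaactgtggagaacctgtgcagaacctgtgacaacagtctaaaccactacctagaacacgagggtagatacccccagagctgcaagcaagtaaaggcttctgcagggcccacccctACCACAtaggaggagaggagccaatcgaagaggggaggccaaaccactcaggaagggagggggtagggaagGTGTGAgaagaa

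The T-box core began 74 and 49 bases before the start of Gzmk, 15 before that of Gzmb and 12 before that of Nkg7. The RUNX core began 93 and 34 bases before the start of Gzmb and 83 before that of Nkg7. Among the genes higher in CD8 T cells, 35 had a promoter in the table, of which 7 (20%) held the T-box core and 13 (37.1%) the RUNX core. Among the 75 genes with a promoter that were lower, each core was found in 7 (9.33%). Of 4205 promoters of all genes tested, 9.04% held the T-box core and 10.7% the RUNX core, and these shares were 12.2% and 14.2% over all 27025 promoters. These matches describe the letters of the window only.

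CD8 T cells were compared with other T cells by summing the UMIs of each kind of cell in each library, so that the 3 libraries served as replicates of this contrast. Of the genes tested in each list, 5 of 12 cytotoxic granule genes, 4 of 8 chemokine and cytokine genes and 6 of 11 NK receptor genes were higher in CD8 T cells. All 9 genes of the gamma-delta and IL-17 list and 8 of 11 of the CD4 and regulatory T list were lower. The direction of the CD4 list follows in part from the rule, which barred Cd4 UMIs from members. That of the gamma-delta list may do so as well, since members needed a Cd8 UMI. Of 5228 genes tested with edgeR's quasi-likelihood test and library as a block, 42 were higher (0.803%) and 97 lower (1.86%) at a Benjamini-Hochberg adjusted p under 0.05. Every one of these 139 genes had the same sign in the 3 libraries, as had 1756 of all genes tested. Genes used by the rule were left out of these counts. Without the library labelled HHcy 35 genes were higher and 101 lower, and without the control 81 and 193. Without the WD library 63 were higher and 149 lower.

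Granule genes were among those with the largest differences. Gzmk (ENSMUSG00000042385, chromosome 13: 113171630-113180965), granzyme K, a granule protease, stood at 203, 110.3 and 151 CPM in CD8 T cells of the control, HHcy-labelled and WD libraries and at 5.91, 0 and 33.2 CPM in the other T cells. The lowest CD8 value lay above the highest other value, and the log2 fold change was 3.67 ± 0.55 (SE; edgeR adjusted p = 0.00392). DESeq2 gave Gzmk a log2 fold change of 4.93 with an adjusted p of 0.0528. Gzma, granzyme A, encoded nearby on chromosome 13 (113093824-113100981), stood at 1415, 836 and 2773 CPM against 29.5, 34.9 and 1267 CPM. It was higher in CD8 T cells within each library, but the other T cells of the WD library lay above the CD8 T cells of the library labelled HHcy. Its log2 fold change was 3.43 ± 0.65 (edgeR adjusted p = 0.0154), and without the library block edgeR gave 1.90 with an adjusted p of 0.442.

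Gzmb, granzyme B, the protease that cleaves caspases in target cells, stood at 654, 212 and 977 CPM against 62.1, 75.3 and 301 CPM. The 2 kinds of cell overlapped across libraries but not within them, and the log2 fold change was 2.11 ± 0.29 (edgeR adjusted p = 0.00241). Without the library block its edgeR adjusted p was 0.0642. Nkg7 stood at 1538, 1185 and 2141 CPM against 384, 289 and 801 CPM, with no overlap (1.83 ± 0.19, edgeR adjusted p = 0.000576). Ctsw, a cathepsin of cytotoxic cells, differed by 1.35 ± 0.20 on the log2 scale (edgeR adjusted p = 0.00375), and by 1.05 after thinning to 1000 UMIs per cell, where it did not pass (adjusted p = 0.118). Prf1, the pore-forming perforin, stood at 107, 50.8 and 64.6 CPM against 5.91, 13.9 and 56.5 CPM and did not pass (1.67 ± 0.50, edgeR adjusted p = 0.138). Its 2 kinds of cell nearly met in the WD library, and without that library it passed (2.65, edgeR adjusted p = 2.77e-06). Of the 12 tested genes of the cytotoxic granule list, 5 were higher and 0 lower, with a median log2 fold change of 1.36 against -0.0054 over all genes tested. Fasl, another gene of this list, did not pass in the main test. It passed under several alternatives, such as without the control library (1.42, edgeR adjusted p = 0.00738).

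**Figure D1:**
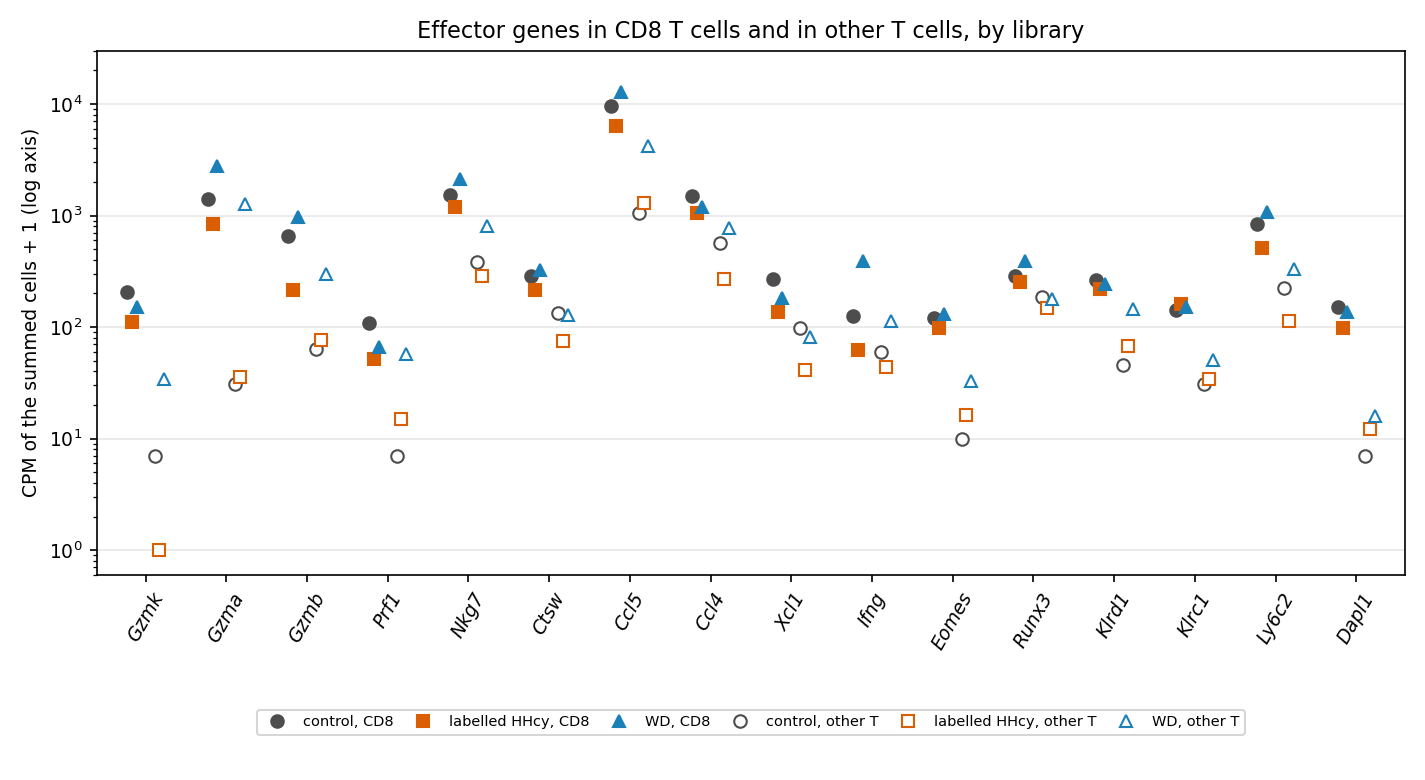
Level of 16 effector and marker genes in the summed CD8 T cells (filled) and the summed other T cells (open) of each library, in CPM plus 1 on a log axis. Each point is 1 library; Gzmk, Nkg7 and Ly6c2 in CD8 T cells lie above every open point of the same gene, while Gzma and Gzmb overlap across libraries.

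Chemokines followed. Ccl5 (ENSMUSG00000035042, chromosome 11: 83525778-83530518), which recruits T cells and monocytes, was the most abundant of the named effector genes. It stood at 9571, 6357 and 12901 CPM in CD8 T cells against 1046, 1283 and 4229 CPM in the other T cells, without overlap (2.38 ± 0.24, edgeR adjusted p = 0.000516). Ccl4, another inflammatory chemokine, stood at 1479.9, 1055 and 1192 CPM against 567, 269 and 776 CPM (1.34 ± 0.25, edgeR adjusted p = 0.0136), and did not pass when members needed a Cd8b1 UMI (1.10, adjusted p = 0.0667). Xcl1, which attracts dendritic cells bearing Xcr1, differed by 1.47 ± 0.23 (edgeR adjusted p = 0.00443), with 32.9% of its CD8 UMIs in 1 cell. Xcl1 lost the call under 3 of 18 alternatives (log2 differences of 0.69 to 1.02, edgeR adjusted p of 0.0706 to 0.325): with a Cd8b1 UMI required, without barcodes holding 3 or more markers of another lineage, and with up to 1 UMI of each exclusion gene. Ifng, the cytokine interferon gamma, stood at 124, 61.8 and 388 CPM against 59.1, 43.2 and 113 CPM (1.21 ± 0.27, edgeR adjusted p = 0.0354). Ifng lost its call under 6 of 18 alternatives, DESeq2 and the fit without the library block among them (adjusted p of 0.0599 to 0.341). The difference was 0.79 without the WD library (edgeR adjusted p = 0.262), 0.82 without barcodes of another lineage and 0.60 with up to 1 UMI of the exclusion genes. Ccl3 and the cytokine Tnf did not pass, at 0.96 and 0.35. Of the 8 tested genes of the chemokine and cytokine list, 4 were higher and 0 lower, with a median of 1.08. Csf2, a cytokine that acts on myeloid cells, had 0 UMIs in CD8 T cells and 111 in 9 other T cells, and was too sparse to be tested.

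Of the NK receptor list, 6 of 11 tested genes were also higher. Klrd1, which pairs with the proteins of the Klrc family, stood at 262, 216 and 244 CPM against 44.3, 66.9 and 145 CPM (1.61 ± 0.29, edgeR adjusted p = 0.0102). Klrc1, an inhibitory receptor, stood at 141, 159 and 151 CPM against 29.5, 33.5 and 49.9 CPM (2.05 ± 0.26, edgeR adjusted p = 0.00151). Neither gene overlapped between the 2 kinds of cell. Klrc2, Klre1 and the activating receptor Klrk1 passed at 2.19, 2.06 and 1.02. Without the library labelled HHcy Klre1 (1.53, edgeR adjusted p = 0.0617) and Klrk1 (0.77, adjusted p = 0.240) no longer did. Klre1 lost the call under 3 of 18 alternatives (adjusted p up to 0.104, without the block, edgeR). Klrk1 lost it under 6 of 18, DESeq2 among them, and stood at 0.40 without barcodes of another lineage (edgeR adjusted p = 0.688). Klrc1 and Klrc2 are close paralogs, so UMIs may be split between them. Ly6c2, a surface protein of memory CD8 T cells and monocytes, stood at 847, 514 and 1063 CPM against 222, 112 and 329 CPM (1.95 ± 0.19, edgeR adjusted p = 0.000506). Klrg1, a receptor of short-lived effector cells, did not pass (0.12 ± 0.32). No gene of the list was lower, and its median was 1.02. A list of 8 NK cell markers, which shares Eomes, Gzma, Klre1 and Prf1 with the lists above, summed to 1838, 1147 and 3189 CPM in CD8 T cells and to 70.9, 82.3 and 1498 CPM in the other T cells. Its members Ncr1, Klra4 and Klra8 were at 0 in the CD8 T cells of the control and WD libraries. Klrb1c, another NK receptor gene of this list, had UMIs in the CD8 T cells of every library. Klra4 and Klra8 were also at 0 in the other T cells of every library, so their absence does not set the 2 kinds of cell apart.

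Transcription factors divided. Eomes, a T-box factor of effector and memory CD8 T cells, stood at 120.5, 97.1 and 129 CPM against 8.86, 15.3 and 31.6 CPM, without overlap (2.63 ± 0.33, edgeR adjusted p = 0.00142). Runx3, which silences Cd4 in the CD8 lineage, passed at 0.85 ± 0.19 (edgeR adjusted p = 0.0413). Runx3 lost the call without the library labelled HHcy (0.82, edgeR adjusted p = 0.154) and without the WD library (0.71, adjusted p = 0.131), and under 5 of 19 alternatives in all (adjusted p up to 0.218, with DESeq2). Tbx21, the T-box factor T-bet, did not pass at 1.15 (edgeR adjusted p = 0.0946), nor did Zeb2 at 0.90, and the 12 genes of this list had a median of 0.078. Other genes among the 12 with the largest positive fold change were Dapl1 (3.45), a marker of naive and memory CD8 T cells, Wdr95 (3.58), Ncald (3.28), a calcium-binding protein, Cx3cr1 (2.50), the fractalkine receptor, and Mctp2 (2.30). Dapl1 stood at 151, 97.1 and 136 CPM against 5.91, 11.2 and 15.0 CPM, without overlap. Mctp2 did not pass without the library labelled HHcy (2.85, edgeR adjusted p = 0.0585) or with DESeq2 (2.47, adjusted p = 0.118). Cx3cr1 is also a gene of monocytes. It was 1 of 7 tested genes of the macrophage and monocyte list, and the only one of them to pass. The summed level of that list ranged from 571 to 741 CPM in CD8 T cells and from 505 to 896 CPM in other T cells, and its part in the Cx3cr1 difference was not tested.

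Most tested genes of CD4 and regulatory T cells were lower in CD8 T cells. The rule barred Cd4 UMIs from members and left the 94 T cells with a Cd4 UMI in the comparison. The direction of this list therefore follows in part from the selection, and its values describe the 2 kinds of cell so chosen. Cd40lg, the ligand through which CD4 T cells help B cells, had 0 UMIs in CD8 T cells and stood at 139, 40.4 and 29.9 CPM in the other T cells. Against a floor of 3 UMIs over all CD8 T cells it was at least 16.7-fold lower (edgeR adjusted p = 0.00169). With DESeq2 Cd40lg did not pass (adjusted p = 0.0856). Foxp3, the factor of regulatory T cells, had 1 UMI in CD8 T cells and 74 in other T cells. Il2ra, the alpha chain of the receptor for Il2, differed by -3.50 ± 0.39 (edgeR adjusted p = 0.000862), and the factor Maf by -3.04 ± 0.28 (edgeR adjusted p = 0.000506). Of 11 tested genes of the CD4 and regulatory T list 8 were lower and 0 higher, with a median of -2.56. Zbtb7b, the factor of the CD4 lineage, was at 13.8, 8.83 and 14.4 CPM against 44.3, 37.6 and 31.6 CPM and did not pass (-1.70, edgeR adjusted p = 0.0952).

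All 9 tested genes of the gamma-delta and IL-17 list were lower, with a median of -4.30, or -3.51 with genes at 0 UMIs set to their bound. Members needed a Cd8 UMI, and the comparison held 144 T cells with neither a Cd4 nor a Cd8 UMI. The direction of this list may therefore also follow in part from the selection. Il17a, the cytokine of this kind of T cell, had 0 UMIs in CD8 T cells and 308 in 29 other T cells, so it was at least 54.7-fold lower. Trdv4, a variable segment of the delta chain, was at least 11.4-fold lower and Il1r1, a receptor for interleukin 1, at least 10.8-fold lower. The scavenger receptor Cd163l1 differed by -4.84 and Tcrg-C1 by -4.30. Trdc differed by -3.61 ± 0.49 (edgeR adjusted p = 0.00219), and all but 1 of its 22 CD8 UMIs lay in the control library. Among the 12 largest negative fold changes were also Abi3bp, a matrix protein (0 against 70 UMIs, at least 12.4-fold lower), Tnfsf11, the ligand RANKL (-5.49), Podnl1 (-5.27), Pxdc1 (-5.13), Ltb4r1, a leukotriene receptor (-4.08), and Nr1d1, a clock factor (-4.08). When only other T cells with a Cd4 UMI formed the comparison, 42 genes were higher and 24 lower.

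**Figure D2:**
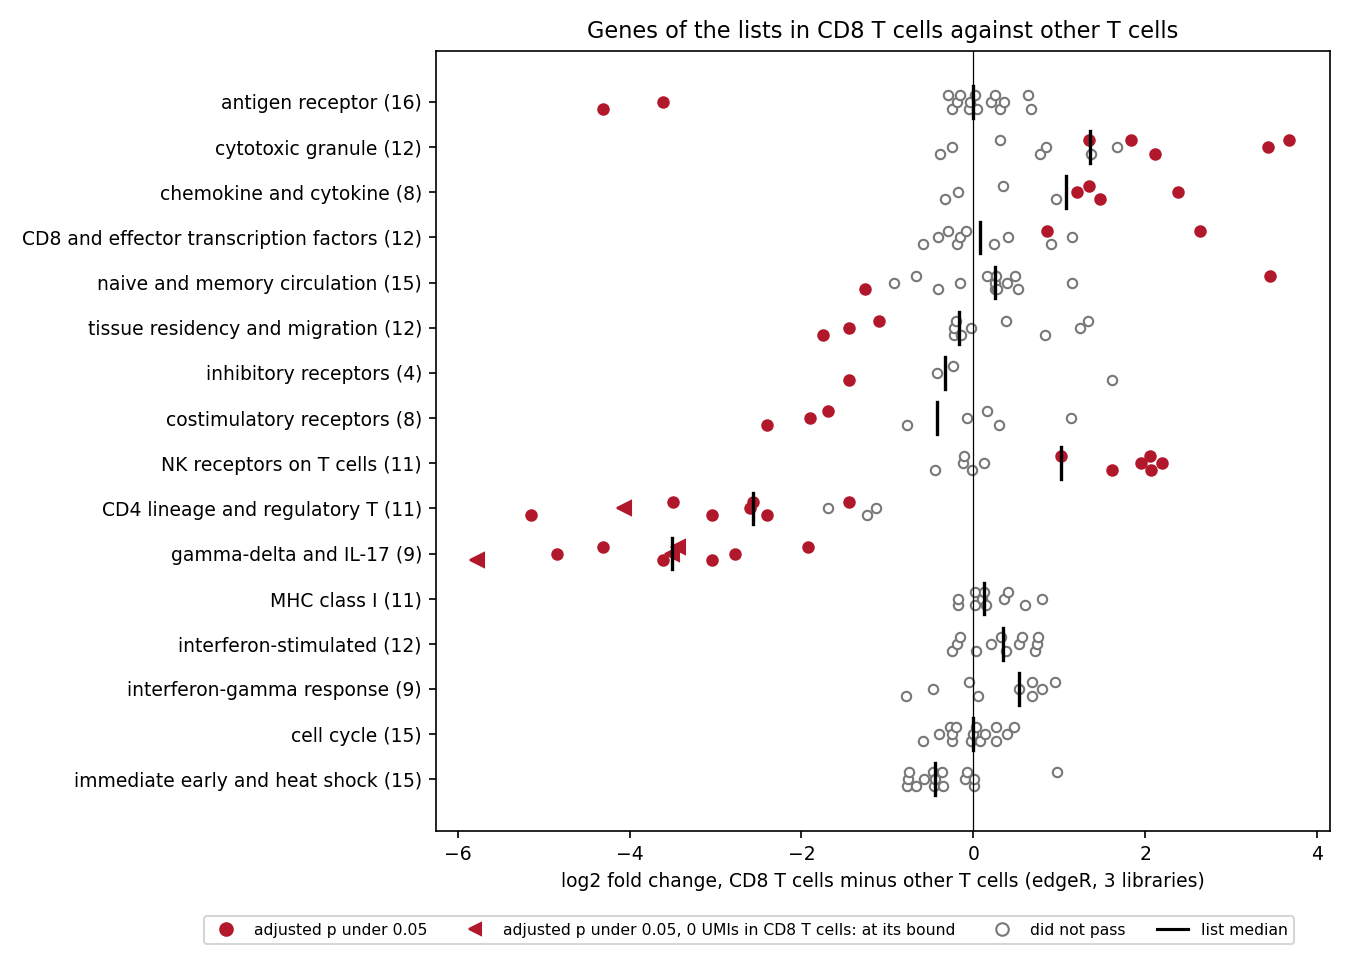
Log2 fold change between CD8 T cells and other T cells for the tested genes of 16 lists, with the number tested in brackets. Each point is 1 gene, filled where the edgeR adjusted p was under 0.05; triangles are genes with 0 UMIs in CD8 T cells, drawn at their bound, and bars are list medians with those genes at the bound. Filled points lie to the right in the granule, chemokine and NK receptor lists and to the left in the CD4 and gamma-delta lists.

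Receptors for activation and retention in tissue were lower or did not pass. Cxcr6, a chemokine receptor of tissue T cells, stood at 99.8, 44.1 and 93.4 CPM against 319, 212 and 221 CPM (-1.75 ± 0.23, edgeR adjusted p = 0.00179). Rgs2, a regulator of G protein signalling, and Cd44, an adhesion receptor of activated T cells, differed by -1.45 and -1.10. Cd44 lost its call without the library labelled HHcy (edgeR adjusted p = 0.0771) and under 5 of 19 alternatives in all (adjusted p up to 0.143), and Cxcr6 when the comparison was limited to cells with a Cd4 UMI (-0.13, adjusted p = 0.922). Itgae, Cd69 and Rgs1, markers of resident memory cells, did not pass, at -0.14, -0.23 and -0.22. Of the costimulatory receptors, Icos (-1.69), Tnfrsf4 (-2.40) and Tnfrsf18 (-1.90) were lower, 3 of 8 tested. Icos did not pass without the library labelled HHcy (-1.69, edgeR adjusted p = 0.0526) or after thinning (-0.91, adjusted p = 0.205). At no more than 5% mitochondrial UMIs Tnfrsf4 (-1.82, edgeR adjusted p = 0.210) and Ctla4 (-0.96, adjusted p = 0.340) did not pass. Ctla4, an inhibitory receptor, was lower by 1.45 ± 0.32 on the log2 scale (edgeR adjusted p = 0.0355) and did not pass with up to 1 UMI of the exclusion genes (adjusted p = 0.0543), while Pdcd1, the receptor PD-1, did not pass (-0.43). Pdcd1 was detected in 19 CD8 T cells (14.4%), and Lag3, Tigit and Havcr2 were too sparse to be tested.

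Few naive and memory genes passed. Of 15 tested, Dapl1 was higher and Il7r, the receptor for interleukin 7, was lower (-1.26 ± 0.28, edgeR adjusted p = 0.0354), with a median of 0.25. Il7r did not pass against other T cells with a Cd4 UMI (-0.59, edgeR adjusted p = 0.522) or with a Cd8b1 UMI required (-1.21, adjusted p = 0.0505). Ccr7 stood at 65.4, 307 and 266 CPM against 50.2, 197 and 51.5 CPM (1.14, edgeR adjusted p = 0.109) and passed without the control library (1.34, edgeR adjusted p = 1.61e-05). No gene passed in the main test in the lists of MHC class I (11 tested), interferon-stimulated genes (12), the interferon gamma response (9), the cell cycle (15) and immediate early or heat shock genes (15). Some of these genes passed under alternatives. Among them were Junb after thinning (-0.70, edgeR adjusted p = 3.12e-06) and H2-Q7 without the control library (0.77, edgeR adjusted p = 0.00329). Of the antigen receptor list, Trdc and Tcrg-C1 were lower and the other 14 did not pass. Variable segments were sparse, with 28 UMIs of Trav and 20 of Trbv segments over all CD8 T cells, which is too few to read clones.

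CD8 T cells were split by detection of Ccl5 into 96 cells with a Ccl5 UMI and, by definition, 36 without. Whether they form 2 separate groups was not tested. Of these 36, 31 held Ccr7 or the naive-cell factor Lef1, as did 34 of the 96. The 2 kinds of cell were defined on the same data, so their values are descriptions without a test. The median depth was 5216 UMIs in cells with Ccl5 and 7254 UMIs in those without, which lacked it at the greater depth.

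Gzmk, Ifng and several receptor genes were found in cells with Ccl5 and in none of the cells without it. The other granule genes examined were found in both. Gzmk was detected in 44 of the 96 cells (45.8%) and in 0 of the 36, which allows a share of cells with a Gzmk UMI of up to 8.33% (3 counts of 36, counting error only) and sets no limit on cells that express it. Gzmb was detected in 55 of the 96 (57.3%) and in 1 of the 36. Over the 132 cells, 31 of the 44 with Gzmk also held Gzmb. Ifng was detected in 40 of 96 cells, Klre1 in 41, Klrk1 in 51 and Cx3cr1 in 37, and each in 0 of 36. Nkg7 was found in both kinds of cell, in 92 of the 96 at 1988 CPM and in 22 of the 36 at 269 CPM.

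The cells without Ccl5 held more of several genes of circulating T cells. Lef1 stood at 403 CPM in them against 67.5 CPM in cells with Ccl5, and Ccr7 at 439 against 122 CPM. Satb1, a chromatin organiser, stood at 853 against 142 CPM, and Tcf7, a factor of naive and memory cells, at 603 against 115 CPM. Dapl1 stood at 330.4 against 26.3 CPM, and Il7r at 363 against 143 CPM. The homing receptor Ccr9 had 47 UMIs in 14 of the 36 cells and 0 in the cells with Ccl5. S100a6, a calcium-binding protein of memory and effector cells, went the other way, at 185 against 1728 CPM.

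Over the 132 cells and 3574 genes found in at least 20% of them, Nkg7 was most like Ccl5, with a Pearson r of 0.74 on log-scaled levels. It was followed by Ahnak (0.57), Ctsd (0.56), H2-D1 (0.56) and S100a6 (0.56). The most opposed were Satb1 (-0.64), Lef1 (-0.60), Tcf7 (-0.53) and Dapl1 (-0.51). These points share 3 libraries and differ in depth, and the values describe these cells only.

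**Figure D3:**
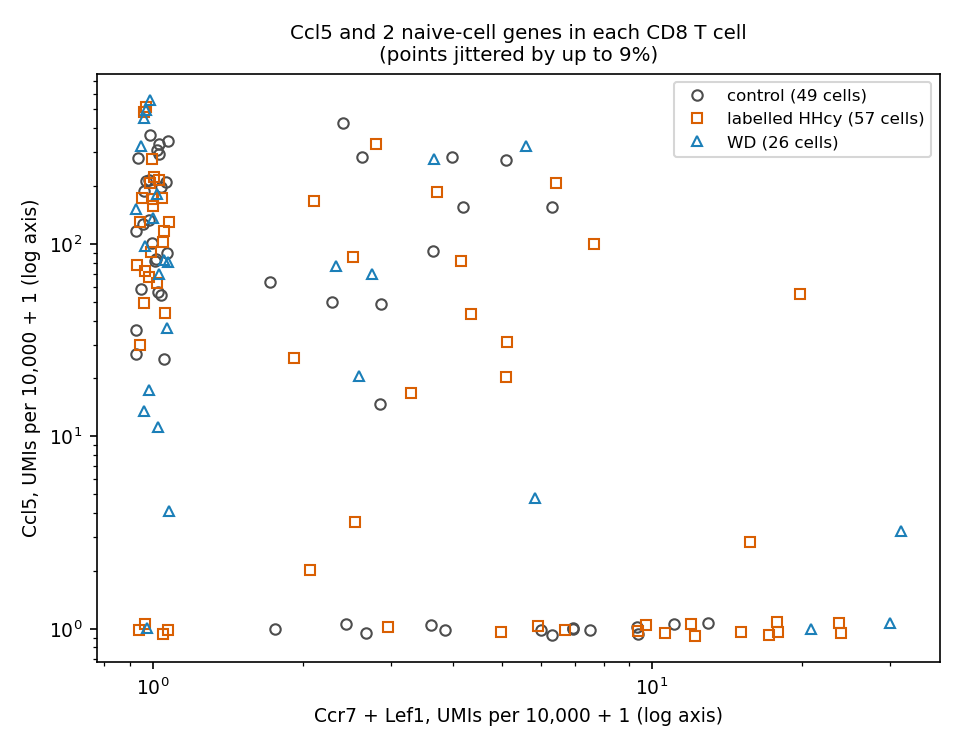
Each point is 1 CD8 T cell, with its UMIs of Ccr7 and Lef1 together on the horizontal axis and of Ccl5 on the vertical axis, both per 10,000 UMIs plus 1 on log axes and slightly jittered. The bottom row holds the 36 cells without Ccl5, of which 31 lie to the right with Ccr7 or Lef1, and the left column holds cells with neither of these 2 genes.

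Among the barcodes that passed the exclusion genes, CD8 T cells were a smaller part of the T cells in the WD library. They were 26 of its 117 T cells (22.2%, exact Clopper-Pearson 95% interval 15.1 to 30.8%). In the control they were 49 of 104 (47.1%, 37.2 to 57.2%), and where the label was HHcy they were 57 of 149 (38.3%, 30.4 to 46.6%). The intervals cover counting error only and leave out the spread between mice. For WD this gave a log2 ratio to control of -1.08 (95% interval -1.65 to -0.51), and for the library labelled HHcy one of -0.30 (-0.72 to 0.12). Of all kept barcodes, CD8 T cells were 0.812%, 0.699% and 0.387%, a log2 ratio of -1.07 (-1.75 to -0.38) for WD, while other T cells stood at 0.57 (0.094 to 1.05). The exclusion genes removed 71 of 120 barcodes with Cd3 and Cd8 UMIs in the control, 226 of 289 under the HHcy label and 136 of 164 in WD. With up to 1 UMI of each exclusion gene, the WD ratio for the share of T cells was -0.78 (-1.27 to -0.29). The part of this removal in the WD share was not tested. When barcodes with 3 or more markers of another lineage were also left out, the ratio for the library labelled HHcy was -1.15 (-2.01 to -0.30). That setting kept 24 of 49, 11 of 57 and 15 of 26 CD8 T cells. Over the control, HHcy-labelled and WD libraries, 3 or more markers of macrophages and monocytes were detected in 17, 28 and 10 of the CD8 T cells, of B cells in 4, 22 and 0, of dendritic cells in 10, 9 and 1, and of neutrophils in 1, 11 and 1. Their part in the share was not tested.

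Shares of cells with Ccl5 were less clearly apart. Ccl5 was detected in 35 of 49 control CD8 T cells (71.4%, 56.7 to 83.4%), in 23 of 26 WD cells (88.5%, 69.8 to 97.6%) and in 38 of the 57 labelled HHcy (66.7%, 52.9 to 78.6%). For WD the log2 ratio to control was 0.31 (-0.016 to 0.63), and for the library labelled HHcy it was -0.10 (-0.47 to 0.27). With each cell thinned to 1000 UMIs, the shares were 69.4% in the control, 76.9% in WD and 61.4% under the HHcy label. Cells with Ccr7 or Lef1 and without Ccl5 were 14 of 49 in the control, 15 of 57 under the HHcy label and 2 of 26 in WD. Both Ccl5 ratios have intervals that include 0. With a Cd8b1 UMI required, the WD ratio was 0.38 and its interval of 0.0050 to 0.75 excluded 0, so the reading for WD depends on the rule for members.

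**Figure D4:**
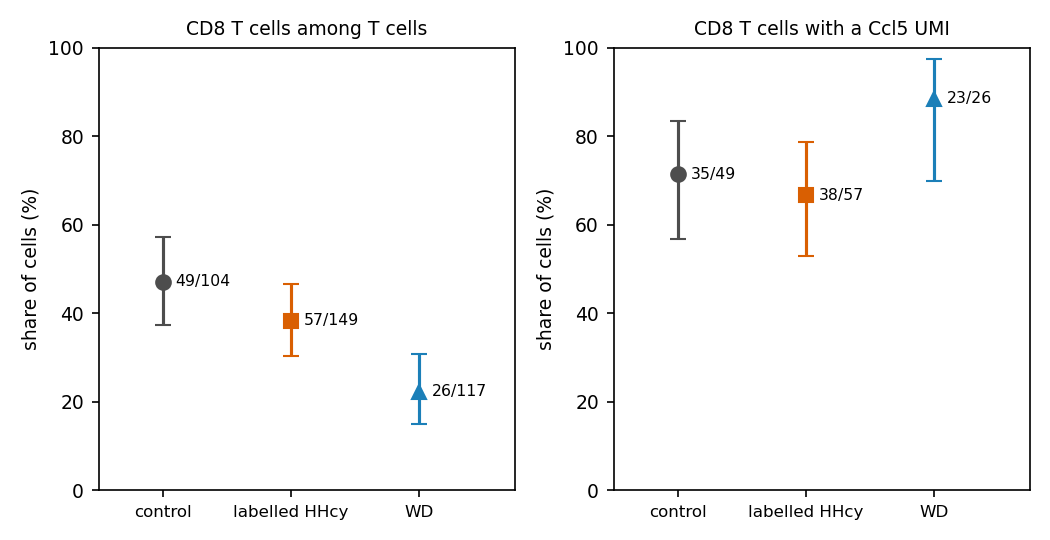
Share of CD8 T cells among T cells and of cells with Ccl5 among CD8 T cells, in each library (%). Points are shares with their counts, and bars are exact 95% intervals that cover counting error only; the WD library has the lowest share of CD8 T cells, 26 of 117.

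Of genes with at least 20 UMIs in the 2 libraries together, a fold of at least 2 to control was found in 220 of 4818 upward (4.57%) and 310 downward (6.43%) in the library labelled HHcy. In WD it was found in 156 of 3307 upward (4.72%) and 240 downward (7.26%). The median ratio of all these genes was -0.11 and 0.026, and after TMM factors it was 0.074 and -0.044. After TMM factors the split was 120 upward and 289 downward in WD and 323 and 181 where the label was HHcy. Without mitochondrial and ribosomal protein genes, the split in the library labelled HHcy was 276 and 225.

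Between libraries, the summed granule genes of the CD8 T cells were lowest in the library labelled HHcy. The cytotoxic granule list summed to 3720 CPM there, against 5252 CPM in control cells and 8066 CPM in WD cells. The log2 ratios to control were -0.50 (-0.60 to -0.40) and 0.62 (0.51 to 0.73), with intervals from exact conditional binomial counts. Gzmb was at 212 CPM there against 654 CPM in control cells, a log2 ratio of -1.63 (-2.0 to -1.26), and at 977 CPM in WD (0.58, 0.25 to 0.90). In WD 1 cell held 27.9% of the Gzmb UMIs, 34.2% of the Gzma UMIs and 40.7% of the Ifng UMIs. Over the control, HHcy-labelled and WD libraries, the top 3 cells held 30.5%, 19.6% and 44.7% of the granule list's UMIs. The list's median per CD8 T cell was 41.3, 24.9 and 40.7 per 10,000 UMIs, so it was not higher in WD than in the control. Cells with at least 5 genes of the list were 59.2%, 63.2% and 80.8%. In the other T cells the granule list ratio was -0.27 in the library labelled HHcy and 1.12 in WD. Whether the CD8 ratios differ from those of other T cells was not tested. In sums over cells, fewer cells of a state and less RNA per cell cannot be told apart.

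Cell cycle genes were lower in the sums of both treated libraries. The list summed to 6212 CPM in control CD8 T cells and to 3244 and 3175 CPM in those of the HHcy-labelled and WD libraries, log2 ratios of -0.94 (-1.04 to -0.84) and -0.97. The median ratio of its 15 genes was -0.91 and -1.03, and in the other T cells it was 0.33 and 0.065. Mki67, a marker of dividing cells, stood at 392, 207 and 101 CPM. Few cells carried these sums, since 3 cells held 40.4%, 57.6% and 67.0% of the list's UMIs. The share of CD8 T cells with at least 5 genes of the list was 24.5%, 26.3% and 26.9%, so it was not lower in the treated libraries.

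In the library labelled HHcy, Ccr7 stood at 307 CPM against 65.4 CPM in control cells, a log2 ratio of 2.23 (1.53 to 3.0), and it was at 1.97 in the other T cells. Ccr7 was detected in 23 of its CD8 T cells. Igkc, the constant region of the kappa light chain, is a B cell gene, and stood at 324 against 61.9 CPM (2.39, 1.68 to 3.18). The summed B cell list stood at 631 against 410 CPM, with all 10 of its genes detected, and its part in the Ccr7 and Igkc values was not tested. The other largest upward ratios were those of Pigk (3.75, 1.11 to 9.12), Trabd (2.61, 0.55 to 5.75), Pja1 (2.53, 0.47 to 5.68) and Gigyf2 (2.06, 0.53 to 4.04), each from 18 to 26 UMIs in that library and 1 to 4 in the control. The largest downward ratios were those of the collagen-binding integrin Itga1 (-3.16, -5.16 to -1.62), Wbp1l (-2.49), Nudt4 (-2.23), Fgl2 (-2.11), a secreted regulator made by T cells, Nedd4 (-2.10) and Pogk (-2.06). Itga1 was at 79.2 CPM in control cells, 8.83 CPM under the HHcy label and 144 CPM in WD. Of the tissue residency list Itga1 and Cxcr6 were past the fold, both downward, among 11 genes.

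In the WD library, Ctla2a, an inhibitor of cathepsins, stood at 1034 CPM against 158 CPM, a log2 ratio of 2.71 (2.22 to 3.22) found in 17 of its 26 CD8 T cells. In the other T cells it stood at 447 against 319 CPM (0.49). Its close paralog Ctla2b may share its UMIs. The other upward ratios were those of Fam193a (2.99), Dgat1 (2.06), an enzyme of triglyceride synthesis, Arl2bp (1.99), Slc7a6os (1.97) and Mrpl32 (1.88), each from 15 to 23 UMIs. The downward ones were Jade2 (-3.75, -9.10 to -1.15), Dynll2 (-3.64, -9.0 to -1.03) and the spindle protein Tpx2 (-3.33, -8.70 to -0.69). They were followed by the histone deacetylase Hdac1 (-2.91, -5.24 to -1.27), the nuclear exporter Xpo1 (-2.80, -5.91 to -0.81) and Tspan13 (-2.52, -5.65 to -0.51), and all 6 had 1 to 3 UMIs in WD. Itga4, an integrin of the tissue residency list that binds Vcam1, had a ratio of 1.10 (0.71 to 1.49) in WD. Satb1 was at 108 CPM in WD against 365 CPM in the control (-1.76, -2.65 to -0.97).

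**Figure D5:**
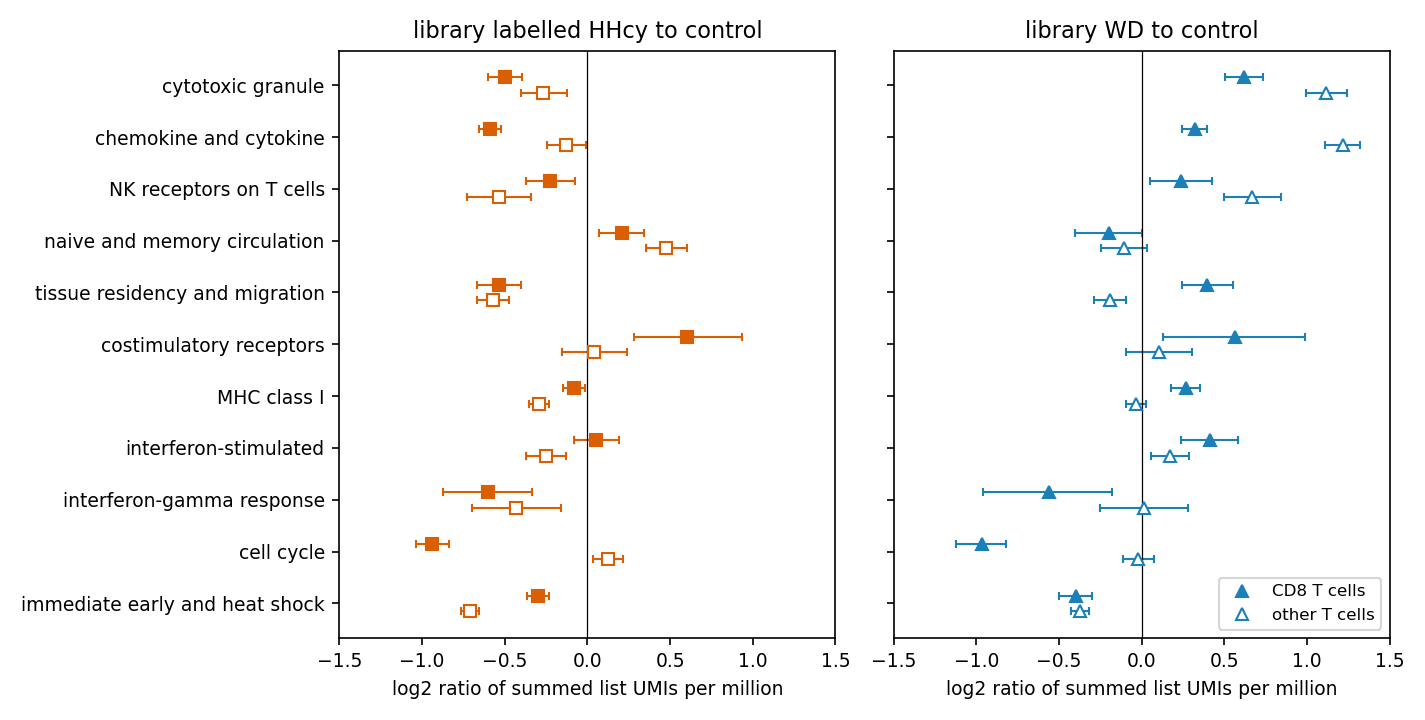
Log2 ratio to control of the summed CPM of 11 gene lists, for CD8 T cells (filled) and other T cells (open), in the library labelled HHcy (left) and the WD library (right). Bars are exact 95% intervals for counting error only; the cell cycle list lies near -1 in CD8 T cells of both libraries.

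Transcripts of other cells were present. Without barcodes holding 3 or more markers of another lineage, 24 of 49 control, 11 of 57 HHcy-labelled and 15 of 26 WD members remained. The summed macrophage and monocyte list ranged from 571 to 741 CPM in CD8 T cells and the B cell list from 230 to 631 CPM. The neutrophil list ranged from 138 to 289 CPM and the stromal list from 31.0 to 57.5 CPM. In the control 1 CD8 T cell held 99.3% of the 286 UMIs of the list of group 2 innate lymphoid and mast cells. The dendritic list summed to 764, 1604 and 330.4 CPM over the 3 libraries, and 1 cell of the library labelled HHcy held 48.0% of its value there. The part of these cells in the gene ratios between libraries was not tested.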

How the data were processed

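Per the submitters' processing notes the authors aligned to mm10 with Cell Ranger 2.2.0, while the file headers name Cell Ranger 4.0.0. The authors deposited raw UMI counts per gene and called barcode, 1 matrix of 32285 genes per library. Read depth was not given in the sources used here. Doublets were not called. The exclusion genes of the selection removed barcodes with a UMI of Cd79a, Csf1r or Csf3r, and members with other markers of those lineages remained.

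The members and gene lists were chosen with earlier results of these data known. UMI counts were summed per library and kind of cell and tested with edgeR 4.0.16 (R 4.3.3; quasi-likelihood test, TMM factors, filterByExpr, library as a block). The block pairs the CD8 and other T cells that came from the same library. Nothing states that libraries came from separate cohorts. The p-values measure how the difference between the 2 kinds of cell varied over these 3 libraries, not the spread between the libraries. DESeq2 1.42.0 was an alternative. On simulated counts the test recovered 34 of 94 genes changed by a log2 fold of 1 and 84 of 87 changed by 2, with 1 false call. The simulation gave every gene the same dispersion of 0.03 and left out very low genes from those changed. It held no genes carried mostly by 1 cell, so it does not measure false calls among such genes.

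Named genes were the 12 largest fold changes per direction among those past the test with the same sign in each library and no cell holding over 25% of the UMIs, plus list examples. Between libraries they were the 6 largest ratios per direction among genes with at least 20 UMIs, at least 5 cells in the higher library and an interval that excluded 0, under the same limit per cell. Il17a, at 30.2% in 1 cell, and Satb1, Itga4, Ccr9 and S100a6 between libraries or states were chosen after their values were seen, as was the split of the cells by Ccl5. A planned share of cells in a state defined by naive-cell genes is not reported here. Of 271 list genes 267 were in the matrix. Coordinates came from RefSeq, GRCm38.p6, for 282 of 285 genes matched by symbol. Intervals are exact (Clopper-Pearson or conditional binomial, scipy 1.17.1), those of ratios of shares approximate, and all cover counting error only.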

Additional observations from a re-analysis of the deposited data

Results flagged for a closer look

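Dgat1, an enzyme of triglyceride synthesis, moved in opposite directions in the WD library. In CD8 T cells its log2 ratio to control was 2.06 (95% interval 0.83 to 3.40), from 31.0 to 129 CPM and 18 UMIs in 11 cells. In the other T cells it was -0.49 (-0.97 to -0.0025), from 198 to 141 CPM. The difference between the 2 kinds of cell was not tested, and each ratio compares 2 libraries.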

How the results depend on the processing

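The 42 genes higher in CD8 T cells became 23 at no more than 5% mitochondrial UMIs, 12 after thinning to 1000 UMIs per cell, 99 without a filter on low counts and 24 with DESeq2. The 97 lower genes became 42, 30, 317 and 60 under the same settings, 24 against other T cells with a Cd4 UMI, and 148 with up to 1 UMI of each exclusion gene, a setting chosen after seeing the data. Thinning left 805 genes to test. Leaving out 1 library gave 35 to 81 higher and 101 to 193 lower genes. Without the block that pairs the 2 kinds of cell within a library, 34 were higher and 96 lower. Of the 139 genes called, 62 kept the call at 5% mitochondrial UMIs, 84 with DESeq2, 92 without the library labelled HHcy and 131 without the control. With up to 1 UMI of the exclusion genes, Foxp3 had an edgeR adjusted p of 0.169 and Abi3bp one of 0.221. Leaving out barcodes with 3 or more markers of another lineage gave an HHcy ratio of -1.15 for the CD8 share. Genes past the fold to control numbered 530 for the HHcy label and 396 for WD. They became 143 and 186 without those barcodes, 74 and 59 after thinning, 97 and 85 with at least 50 UMIs, and 1490 and 1087 at a fold of 1.5. Ctla2a in WD was 2.17 without those barcodes and 4.03 after thinning. Tpsb2, a mast cell gene, ranged from -0.69 to 1.45 when 1 library was left out. The cause of these changes was not tested. Of 230 results for single genes, 21 lost the call under at least 1 alternative, 43 gained it under at least 1, and 164 counted as unchanged under every alternative that gave a value. For genes tested against other T cells, unchanged means that the call, or its absence, was kept. Ratios between libraries counted as unchanged when they stayed within their main interval, without a check of the fold threshold. The 26 CD8 T cells of WD limit every comparison with that library.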

Other observations

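Another 42 kept barcodes held Cd8a or Cd8b1 with 0 Cd3 UMIs and met every other condition of the selection. Cd8a was detected in 35 of them and Cd8b1 in 10. The dendritic cell gene Flt3 was found in 28 (66.7%), the MHC class II gene H2-Aa in 36, Clec9a in 15 and Xcr1 in 10. Trac and Nkg7 were each found in 2, and Ncr1 in 0. These barcodes entered no comparison.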
